A study of Homo sapiens with 2 samples.

Results

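MCF10A cells that had been given a MEK inhibitor at 15 h of EGF stimulation and were collected at 20 h were compared with cells collected at 15 h, the moment at which the inhibitor was added. MCF10A is an immortalised, non-tumorigenic line of human breast epithelium that needs EGF to proliferate. The cells were found through the sample tag that each barcode carried, by taking those annotated as 15 h of EGF and those annotated as 20 h with the MEK inhibitor from 15 h. This gave 1012 cells of the 4837 in the series, 552 at 15 h (488 in library 1 and 64 in library 2) and 460 with the inhibitor at 20 h (216 and 244). A library is 1 biological replicate in which the cells of all conditions were pooled, so every condition has n = 2. Cells kept in EGF alone until 20 h (671 cells) and unstimulated cells at 0 h (204 cells) are given beside them, and the remaining conditions of the series entered only the shared fit. EGF was present in every group except the unstimulated one. The inhibitor's name and dose were not given in the sources used here.

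EGF binds the receptor EGFR, which through RAS switches on the kinase chain RAF, MEK and ERK. ERK phosphorylates transcription factors and so induces early genes such as FOS and EGR1, later genes such as FOSL1 and CCND1, and a group of inhibitors (dual-specificity phosphatases, Sprouty and SPRED proteins) that act back on the pathway. In epithelial cells the pathway also raises the cells' own EGFR ligands and is known as the route by which growth factors drive cyclin D1 and entry into the cell cycle.

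The comparison of the inhibitor at 20 h with 15 h contains both the drug and the time that passed, and these cannot be told apart within it. The counts of most lists and the values of the leading genes are therefore set beside the same difference in cells kept in EGF alone and, where it is named, beside the direct test between both 20 h groups. The comparisons with 15 h share the same 15 h sums, so their values stand side by side and are no independent evidence of each other. Levels are in CPM, the UMIs (tagged molecules) of a gene for every 1000000 UMIs in the summed cells of a condition and library, and differences are log2 fold changes from edgeR's quasi-likelihood test with a library term, with p adjusted over 11147 tested genes and called below 0.05. In a summed level, fewer cells with a transcript and less of it per cell cannot be told apart.

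Depth was uneven. The 15 h sums held 6112513 UMIs in library 1 and 635354 in library 2, and the inhibitor sums 2630693 and 3054193, with medians of 12164, 8400, 12132 and 12274 UMIs per cell. In the 15 h sum of library 2 a gene with 0 UMIs could still lie at up to 4.72 CPM (3 counts). The unstimulated sums were shallower still in library 2, with 1433054 UMIs from 175 cells and 213208 from 29. In them 3 counts equal 2.09 and 14.1 CPM, so low 0 h levels rest on few UMIs. CITED4, ELK3 and GPR1, for example, had 2 UMIs each at 0 h in library 2. Of the 8641 and 6161 tagged barcodes 56.1% and 40.2% had been called doublets and are not in the count tables, and the libraries shared 0 of the counted barcodes. Keratin and other epithelial marker transcripts (11 genes) summed to 14750 and 20300 CPM at 15 h and to 18760 and 21920 with the inhibitor. Of 18 markers of blood, vessel and connective tissue cells 8 were not in both tables, and the other 10 summed to 23.7 and 14.2 at 15 h and to 37.3 and 21.9 with the inhibitor. DCN, which encodes decorin, held 17.2 and 6.30 of this at 15 h and 27.4 and 17.7 with the inhibitor, and LYZ, CD79A, PDGFRB, RGS5, HBA1 and PMEL were at 0 in at least 1 of the 4 sums. Mitochondrial-encoded UMIs had medians of 5.16% and 6.15% per cell at 15 h and 5.56% and 5.43% with the inhibitor. The part of these markers in the results was not tested.

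With the MEK inhibitor at 20 h 2330 of 11147 genes differed from 15 h, 1166 of them higher and 1164 lower. That is a background of 20.9% of genes called, 10.5% higher and 10.4% lower, against which the counts in each gene list are to be read. Over the same interval in EGF alone 568 genes differed (5.1%), 383 higher (3.44%) and 185 lower (1.66%), and the direct test of the inhibitor against EGF alone at 20 h called 1332 genes (11.9%; 4.8% higher and 7.15% lower). Of the 2330 genes 2290 (98.3%) had the same sign in both libraries, and 885 differed by at least 1 on the log2 scale, 496 higher and 389 lower. The calls came from these same libraries, so a high share of equal signs follows from the selection and is no evidence of replication. The median log2 fold change over all tested genes was 0.01. Without the 15 h sum of library 1, the deeper of the pair, 521 genes were called (230 higher and 291 lower), and without the library term 1009 (496 and 513). Of 118 called genes that a fixed rule named, 46 kept their call under every alternative run, and the sums whose loss ends a call are given in its paragraph.

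Transcripts that report MEK/ERK output fell steeply. DUSP4, a nuclear phosphatase that ERK induces and that dephosphorylates ERK, lies on chromosome 8 (29333064 to 29350668, minus strand, GRCh38 as in GENCODE v29). Its level was 57.9 and 72.4 CPM in libraries 1 and 2 at 15 h and 4.94 and 4.91 with the inhibitor, against 46.9 and 54.4 in EGF alone at 20 h and 2.79 and 14.1 at 0 h. Both inhibitor values thus lay far below both 15 h and both EGF values and within the unstimulated range, a log2 fold change from 15 h of -3.71 (SE 0.22, adjusted p = 1.25e-18). That unstimulated range rests on only 4 and 3 UMIs. EPHA2, an ephrin receptor, went from 25.7 and 28.3 at 15 h to 2.66 and 3.6 with the inhibitor and stood at 22.3 and 34.8 in EGF alone. The inhibitor values lay below all 4 of the others, and EPHA2 fell by 3.27 on the log2 scale (SE 0.29, adjusted p = 5.44e-13). The cytoplasmic ERK phosphatase DUSP6 was at 21.1 and 14.2 at 15 h and at 1.90 and 3.27 with the inhibitor, against 22.8 and 21.0 in EGF alone (log2 -2.95, SE 0.32, adjusted p = 3.87e-10). PHLDA1, a pleckstrin-homology protein induced by growth factors, was at 53.5 and 33.0 at 15 h and at 4.18 and 10.5 with the inhibitor, against 49.3 and 47.5 in EGF alone (log2 -2.70, SE 0.24, adjusted p = 4.94e-13). CCND1, the gene of cyclin D1, fell from 163 and 228 to 44.9 and 64.8 (log2 -1.81, SE 0.13, adjusted p = 1.31e-15), while EGF alone left 130 and 197. The calls of all 5 genes held under every alternative run.

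**Figure D1:**
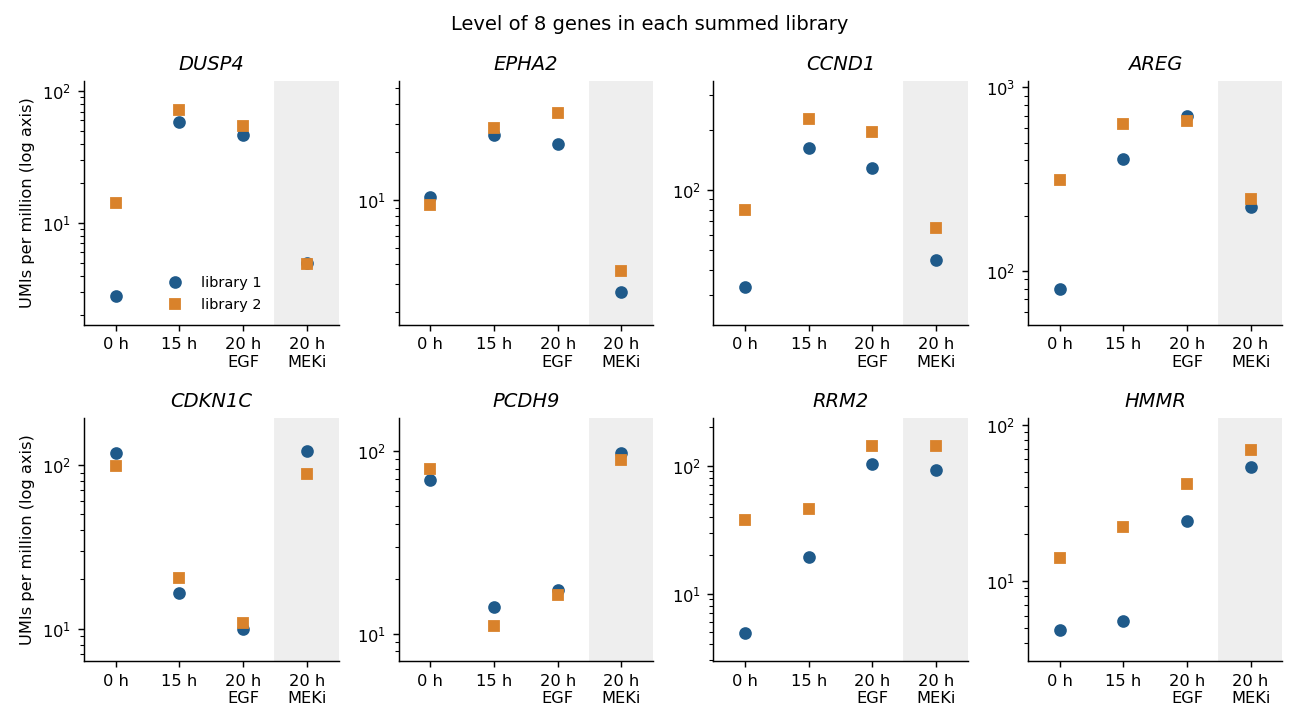
Level of 8 genes (vertical log axis, CPM of the summed cells) in unstimulated cells, at 15 h of EGF, at 20 h of EGF alone and at 20 h with the MEK inhibitor from 15 h (shaded). Each point is 1 library. DUSP4, EPHA2, CCND1 and AREG stand lower with the inhibitor than at 15 h and in EGF alone, CDKN1C and PCDH9 stand at 123 and 88.1 and at 97.3 and 89.7 with it, and RRM2 and HMMR stand above 15 h in both 20 h groups.

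Of the 10 genes in the MEK/ERK output list 8 fell and 1 rose, with a median log2 fold change of -2.45. In EGF alone 0 of the 10 were called and the median was -0.12. The Sprouty genes SPRY4 (log2 -2.83, adjusted p = 0.0129) and SPRY2 (-2.20, adjusted p = 5.87e-05), whose proteins restrain receptor signalling to RAS, and the ETS factor ETV4 (-2.13, adjusted p = 0.00661) fell from low levels. ETV5, a close relative of ETV4, stood at 5.24 and 4.72 at 15 h and at 4.18 and 2.29 with the inhibitor (log2 -0.91, SE 0.45, adjusted p = 0.154) and was not called. EPHA4, another ephrin receptor, rose from 0.49 and 1.57 to 2.66 and 3.6 (log2 2.33, SE 0.78, adjusted p = 0.0265), opposite to the rest of the list. With the sums thinned to equal depth the list had 5 fallers, and SPRY4, SPRY2, ETV4 and EPHA4 lost their calls. Those of SPRY2, ETV4 and EPHA4 were also lost without the 15 h sum of library 1, those of SPRY4 and EPHA4 without either inhibitor sum, that of ETV4 without the inhibitor sum of library 2, and that of EPHA4 without the library term. DESeq2 gave EPHA4 no adjusted p.

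Genes of the wider set of ERK feedback regulators fell too: 13 of 23 tested members fell and 1 rose (median -0.88), against 1 fall and 0 rises in EGF alone. SPRED1, which holds RAS back at the membrane, went from 9.82 and 15.7 at 15 h to 1.90 and 1.97 with the inhibitor and stood at 14.2 and 19.9 in EGF alone. Both inhibitor values lay below all 4 of these, and SPRED1 fell by 2.58 (SE 0.41, adjusted p = 3.42e-06). SPRY1 fell by 4.33 (adjusted p = 0.000257), from 4.09 and 4.72 to 0.38 and 0 CPM. The ERK phosphatases DUSP5 (-3.31, adjusted p = 2.02e-06) and DUSP2 (-2.85, adjusted p = 0.00213) also came from under 10 CPM. Better counted members were ZFP36L2 (-1.75, adjusted p = 1.09e-13) and ZFP36L1 (-0.88, adjusted p = 1.05e-06), which encode proteins that destabilise AU-rich messages, and PHLDA2 (-1.48, adjusted p = 4.22e-16). PHLDA3 was the riser (0.42, adjusted p = 0.00312). Without the 15 h sum of library 1 the list had 5 fallers, and at equal depth 8; SPRY1, DUSP5 and DUSP2 lost their calls in both settings, and ZFP36L1 and PHLDA3 in the first. DUSP2 was also lost without the library term and without the inhibitor sum of library 2, and PHLDA3 without the library term and without the inhibitor sum of library 1. DESeq2 gave SPRY1 no adjusted p.

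The early response factors split. FOSL1, the AP-1 subunit whose protein ERK stabilises, stood at 32.9 and 28.3 at 15 h, at 35.4 and 29 in EGF alone and at 6.08 and 7.20 with the inhibitor. It fell by 2.37 (SE 0.25, adjusted p = 1.85e-10), and both inhibitor values lay below all of the others. MYC, which drives growth and ribosome production, was at 229 and 274 at 15 h and at 43.7 and 96.6 with the inhibitor, below its unstimulated 140 and 216 (log2 -1.88, SE 0.14, adjusted p = 1.41e-15). In EGF alone MYC stood at 189 and 209, a fall of 0.40 (adjusted p = 0.029). IER2 (-1.34, adjusted p = 5.79e-10), JUNB (-1.30, adjusted p = 1.26e-09), FOS (-0.57, adjusted p = 0.00079) fell as well. FOSL2 (1.17, adjusted p = 3.23e-05), JUND (0.55, adjusted p = 0.00203), BTG1 (0.62, adjusted p = 0.000786) and BTG2 (1.13, adjusted p = 0.000191), the last a pair of antiproliferative genes, rose. In all 11 of 24 tested members fell and 4 rose (median -0.40), against 1 fall and 0 rises in EGF alone. The counts were 6 lower and 2 higher without the library term, 8 and 0 without the 15 h sum of library 1, and 7 lower without the inhibitor sum of library 1. FOSL1, MYC, IER2 and JUNB held under every alternative, whereas the 4 rises and FOS were lost without the 15 h sum of library 1, FOS also without the inhibitor sum of library 1 and JUND without that of library 2.

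Among ETS factors, the family that ERK phosphorylates at growth factor responsive promoters, ELK3 stood out. It was at 48.9 and 51.9 at 15 h, at 48.3 and 43.5 in EGF alone and at 10.6 and 10.8 with the inhibitor, close to its 8.37 and 9.38 at 0 h. ELK3 fell by 2.17 (SE 0.19, adjusted p = 7e-13). ETS1 (-1.42, adjusted p = 0.000112) and ELK4 (-0.89, adjusted p = 0.000443) fell and ETS2 rose (0.97, adjusted p = 2.89e-05), so 3 of 12 tested fell and 1 rose, with a median of 0.07. The calls of ETS1, ETS2 and ELK4 were lost without the 15 h sum of library 1, and that of ELK4 also without the inhibitor sum of library 2, while that of ELK3 held throughout.

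All 5 tested EGFR ligands fell, with a median of -1.48. AREG encodes amphiregulin, a ligand that epithelial cells shed as an autocrine growth factor. It stood at 405 and 634 CPM at 15 h, at 695 and 653 in EGF alone, a difference that was not called (log2 0.41, adjusted p = 0.0944), and at 223 and 246 with the inhibitor. Inhibitor values lay below all 15 h and EGF values (log2 against 15 h -1.08, SE 0.15, adjusted p = 2.82e-07), and the direct test against EGF alone gave -1.49 (SE 0.15, adjusted p = 3.5e-11). TGFA, the gene of TGF-alpha, fell from 29.1 and 33.0 to 7.22 and 5.24 (log2 -2.31, SE 0.24, adjusted p = 1.06e-10), below its 0 h values of 11.2 and 14.1, and stood at 23.6 and 25.4 in EGF alone. EPGN, which encodes epigen, fell with the inhibitor (-1.11, adjusted p = 1.39e-08) and in EGF alone (-0.74, adjusted p = 3.03e-05), and the direct test between both 20 h groups did not call it (-0.38, adjusted p = 0.0608). HBEGF (-1.69, adjusted p = 0.00288) and EREG (-1.48, adjusted p = 0.00231) differed strongly between libraries at 15 h, at 3.76 and 29.9 and at 7.69 and 20.5. Neither of them was called without the library term, which left 3 of 5, and HBEGF was also lost without the library 2 sum of either group. BTC and EGF itself were listed but not tested.

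The promoters of EPHA2 and AREG, a receptor and a ligand that fell together, share a motif. In the 250 bases before each RefSeq start (GRCh38.p14), both strands were searched for the cyclic AMP response element TGACGTCA and for the AP-1 site TGANTCA. The first was found in EPHA2 as 1 of 6 matched MEK/ERK output genes, in AREG as 1 of 7 EGFR ligands and in 3.11% of the promoters of 8727 tested genes. The AP-1 site was found in 0 of the 6, in 1 of the 7 and in 3.76% of tested genes. Among the 12 largest falls MDFI, which encodes an inhibitor of myogenic factors, was the 1 of 8 matched genes with an AP-1 site. Of 10 matched genes among the 12 largest rises, 1 had the AP-1 site and 1 the cyclic AMP response element. These 30-base windows, shown because they hold those matches, are given in the gene's orientation with the motif in capitals, and a match is a description of letters and no evidence of binding.
EPHA2, chr1:16156102-16156131, minus strand: gcgggcgttggTGACGTCAcgcagggcatg
AREG, chr4:74445060-74445089, plus strand: cggccgggcctTGACGTCAtgggctgcggc
MDFI, chr6:41636980-41637009, plus strand: gtcccgtccgggTGACTCAgcccgtgccag

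Of 20 tested genes of the signalling chain itself, the RAS-ERK and PI3K-AKT cascades, 2 fell and 0 rose (median -0.12), and in EGF alone 0 were called. MAP2K1, the gene of MEK1 and so of a target of the inhibitor class, went from 45.6 and 47.2 to 25.1 and 28.8 (log2 -0.87, SE 0.17, adjusted p = 8.01e-05) with 42.2 and 49.7 in EGF alone. PIK3R1, which encodes a regulatory subunit of PI3K, fell by 0.74 (adjusted p = 6.61e-06). Of 18 receptor kinases and adaptors 4 fell, among them MET (-0.66, adjusted p = 0.000693) and the insulin receptor substrate IRS2 (-1.02, adjusted p = 0.00202), and 2 rose. VAV3, a guanine nucleotide exchange factor, rose from 6.54 and 4.72 to 25.5 and 20.3, well above the 5.50 and 5.44 of EGF alone (log2 1.84, SE 0.25, adjusted p = 1.66e-07). The calls of MAP2K1, PIK3R1, MET and IRS2 were lost without the 15 h sum of library 1, which left 0 falls in either list, and that of MET also without the inhibitor sum of library 1. That of VAV3 was lost at equal depth, as were those of MAP2K1, MET and IRS2.

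CDK inhibitor genes rose. CDKN1C, which encodes p57 and lies on chromosome 11 (2883213 to 2885773, minus strand), was at 119 and 98.5 CPM at 0 h, at 16.5 and 20.5 at 15 h and at 10.0 and 10.9 in EGF alone at 20 h. With the inhibitor it stood at 123 and 88.1, around its unstimulated level and above every value of the other EGF groups. CDKN1C rose by 2.62 against 15 h (SE 0.18, adjusted p = 4.05e-16), while its difference in EGF alone was -0.78 (adjusted p = 0.0505). CDKN2C, the gene of the CDK4/6 inhibitor p18, was at 3.93 and 6.30 at 15 h, at 11.2 and 16.0 in EGF alone and at 25.9 and 29.8 with the inhibitor. It rose in both (log2 2.54, SE 0.26, adjusted p = 4.96e-11, and 1.44, SE 0.28, adjusted p = 0.000254), and more with the inhibitor by the direct test (1.10, adjusted p = 1.58e-05). CDKN3 (1.76, adjusted p = 6.65e-09), a phosphatase of CDKs, and CDKN2D (1.4, adjusted p = 1.01e-05), the gene of p19, also rose in EGF alone (1.32, adjusted p = 9.95e-06, and 1.07, adjusted p = 0.00122). The direct test called 3 of the 6 tested genes of the list higher (median 0.53). It did not call CDKN3 (0.44, adjusted p = 0.0584) or CDKN2D (0.33, adjusted p = 0.27). CDKN1A, the gene of p21, rose by 0.55 (adjusted p = 0.0132), and CDKN1B, the gene of p27, went from 8.34 and 9.44 to 9.88 and 13.1 (log2 0.40, adjusted p = 0.343). Thus 5 of 6 tested members rose (median 1.58), and 3 of 6 in EGF alone (median 0.73). Without the 15 h sum of library 1, and at equal depth, 3 of them were called, with CDKN2D and CDKN1A lost in both settings. CDKN1A was also lost without the library term, without either inhibitor sum and with DESeq2.

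The G1 cyclins and CDKs moved in both directions, with 4 of 16 tested higher and 3 lower (median 0.36), against 5 higher and 0 lower in EGF alone. Between both 20 h groups the direct test called 0 of the 16 higher and 4 lower with the inhibitor (median -0.10). CCNE2, the gene of cyclin E2, rose with the inhibitor (1.27, adjusted p = 8.84e-05) and in EGF alone (1.34, adjusted p = 2.92e-05). CDK2 (1.46, adjusted p = 0.000497) and MYBL2 (1.88, adjusted p = 5.34e-08), the gene of B-MYB, did likewise (1.17, adjusted p = 0.0125, and 1.76, adjusted p = 2.66e-07). CDK6, a partner kinase of the D cyclins (-0.87, adjusted p = 3.84e-07), and E2F3 (-1.13, adjusted p = 0.0037) fell, with -0.13 and -0.28 in EGF alone. Without the 15 h sum of library 1 the 4 rises and E2F3 were lost, and of the falls CDK6 was still called.

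S phase transcripts rose in the inhibited cells as they did in EGF alone. RRM2, a subunit of the enzyme that makes deoxyribonucleotides, stood at 19.5 and 45.6 at 15 h, at 92.4 and 143 with the inhibitor and at 103 and 143 in EGF alone. The inhibitor and EGF groups overlapped and both lay above 15 h (log2 2.13, SE 0.17, adjusted p = 2.51e-14, and 2.15, SE 0.16, adjusted p = 2.11e-14). Of 45 tested S phase genes 32 rose and 2 fell (median 0.83), and in EGF alone 34 rose and 0 fell (median 0.83). Replication genes such as PCNA (1.02), MCM5 (0.99), TYMS (1.66) and CDC45 (1.66) were among the rises, and all 4 rose in EGF alone too. The 2 falls, POLR1B (-1.01, adjusted p = 0.00117) and MRPL36 (-0.31, adjusted p = 0.0255), encode a subunit of RNA polymerase I and a mitochondrial ribosomal protein. The direct test between the 20 h groups called 0 of the 45 higher and 3 lower with the inhibitor, with a median of -0.03. The test called 7 of the S phase genes higher without the 15 h sum of library 1, and 14 at equal depth. RRM2, PCNA and TYMS held in each alternative, MCM5 and CDC45 and both falls did not hold without that sum, POLR1B also not without the inhibitor sum of library 2, and MRPL36 not without either inhibitor sum.

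G2/M transcripts rose as well. HMMR, which encodes a spindle-associated hyaluronan receptor, was at 5.56 and 22.0 at 15 h, at 24.2 and 42.1 in EGF alone and at 54.0 and 69.4 with the inhibitor. All 4 values at 20 h exceeded both at 15 h, and those with the inhibitor exceeded those in EGF alone (log2 against 15 h 2.75, SE 0.23, adjusted p = 2.85e-13, and against EGF alone 0.96, SE 0.16, adjusted p = 1.38e-05). NDC80, part of the outer kinetochore, rose from 2.13 and 4.72 to 20.5 and 28.8 (log2 3.03, SE 0.31, adjusted p = 7.19e-11) and to 18.3 and 30.8 in EGF alone. NUSAP1, a microtubule-binding protein, rose from 8.51 and 26.8 to 57.8 and 62.5 (log2 2.36, SE 0.21, adjusted p = 6.98e-13) and to 39.0 and 46.4 in EGF alone. Of 56 tested G2/M genes 45 rose and 1 fell (median 1.72), and in EGF alone 44 rose and 0 fell (median 1.53). The fall was LBR, the lamin B receptor (-0.77, adjusted p = 0.000122). The direct test called 4 of the 56 higher and 1 lower with the inhibitor, median 0.08. CCNB1, the gene of cyclin B1, was not called with the inhibitor (0.39, adjusted p = 0.106) but rose in EGF alone (0.55, adjusted p = 0.0279). CDK1 (1.98), TOP2A (2.33) and MKI67 (2.21) rose against 15 h with the inhibitor and in EGF alone. The comparison of the inhibitor with 15 h called 23 G2/M genes higher and 0 lower without the 15 h sum of library 1, and 26 higher at equal depth. HMMR, NDC80, NUSAP1, CDK1, TOP2A and MKI67 held in each alternative.

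Promoters of the G2/M genes carry letters that the S phase promoters seldom have. The cell cycle genes homology region, searched as TTTGAA on both strands of the 250 bases before the start, was found in 25 of 47 matched G2/M promoters (53.2%). It was found in 1 of 36 S phase promoters (2.78%), in 8.08% of those of tested genes and in 13.6% of all 27305 in the RefSeq table. The CCAAT box, also named for its letters, was found in 33 of the 47 (70.2%), in 23 of the 36 (63.9%) and in 36.0% of tested genes. The region is known as a binding site of MuvB protein complexes, which repress and later activate late cell cycle genes. The 4 windows of 30 bases that follow, from G2/M genes that rose by 2.75, 2.36, 2.04 and 1.65 in the order given, were chosen after their values were seen for a match within 30 bases of the start. Capitals mark the match on either strand, TTTGAA or its complement TTCAAA, and HMMR and ANLN hold adjoining pairs.
HMMR, chr5:163460598-163460627, plus strand: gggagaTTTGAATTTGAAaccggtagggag
ANLN, chr7:36389830-36389859, plus strand: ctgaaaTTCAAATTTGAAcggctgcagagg
CCNB2, chr15:59105105-59105134, plus strand: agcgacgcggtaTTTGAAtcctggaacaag
CDCA8, chr1:37692481-37692510, plus strand: gtgactgtggagTTTGAAttgggtggcggt

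**Figure D2:**
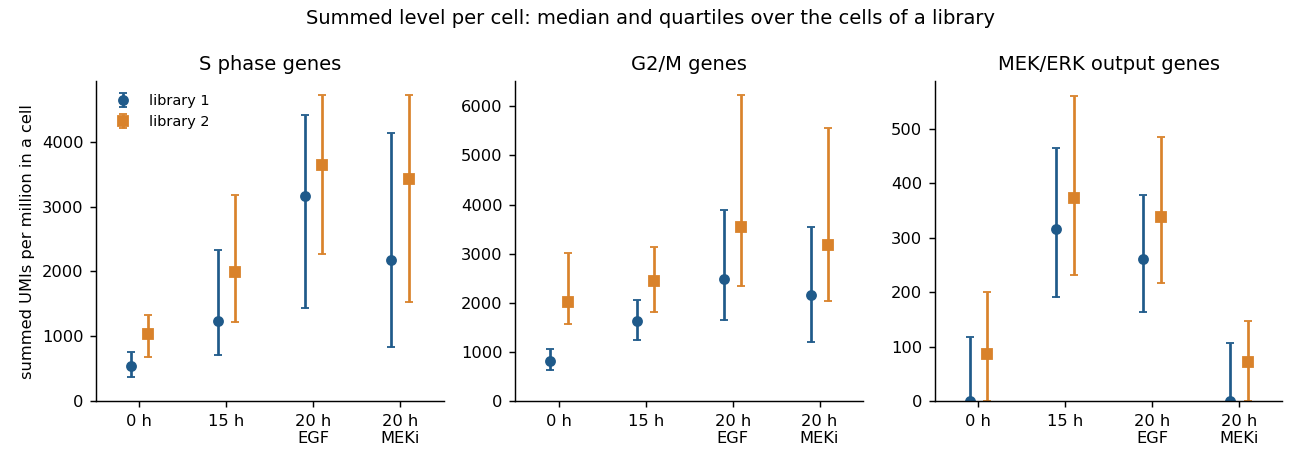
Summed level per cell of the S phase, G2/M and MEK/ERK output lists (vertical axis, CPM within the cell) in unstimulated cells and at 15 h, 20 h of EGF alone and 20 h with the MEK inhibitor. Points are medians and bars quartiles over the cells of 1 library, so they show spread among cells and not replicate error. The MEK/ERK output median with the inhibitor is 0 and 73.0, against 315 and 373 at 15 h, while the S phase median is 2171 and 3421 against 1243 and 1993.

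Per cell the cycle lists spread widely with the inhibitor. In library 1 the middle cells by quartile ran from 835 to 4127 CPM of S phase transcripts with the inhibitor, from 1437 to 4402 in EGF alone and from 715 to 2327 at 15 h. In library 2 these ranges were 1524 to 4715, 2267 to 4715 and 1220 to 3184. The lower quartile with the inhibitor thus lay below that of EGF alone in both libraries, and the upper quartile lay below it in library 1 and at it in library 2. For G2/M transcripts the lower quartiles with the inhibitor, 1210 and 2050, likewise lay below the 1656 and 2340 of EGF alone and, in library 1, near the 1248 of 15 h. These quartiles are over cells, and with 2 libraries no test of them was made.

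Ribosome biogenesis genes, many of them MYC targets, fell with the inhibitor. RRS1, which is needed to assemble the large ribosomal subunit, went from 89.3 and 85.0 at 15 h to 35.0 and 35.4 with the inhibitor and to 71.9 and 67.1 in EGF alone. The 3 groups did not overlap, and RRS1 fell by 1.37 (SE 0.14, adjusted p = 1.72e-10) and in EGF alone by 0.41 (adjusted p = 0.0319). RRP9, which binds the U3 small nucleolar RNA, went from 72.3 and 88.1 to 30.4 and 41.6 (log2 -1.11, SE 0.14, adjusted p = 2e-08) and stood at 70.2 and 72.9 in EGF alone. RRP12 (-1.35, adjusted p = 1.38e-05), PNO1 (-1.10, adjusted p = 9.3e-07) and POLR1B (-1.01) fell, and so did ODC1 (-0.80, adjusted p = 1.6e-05), a MYC target that starts polyamine synthesis. Of 30 tested members 22 fell and 0 rose (median -0.62), against 1 fall in EGF alone (median -0.06), and the direct test called 20 lower and 0 higher. Without the library term 10 of the falls were called, at equal depth 8, and without the 15 h sum of library 1 the falls called were 3. RRS1 held in each alternative and RRP9 in each but equal depth, while RRP12, PNO1, POLR1B and ODC1 were lost without that sum, and POLR1B also without the inhibitor sum of library 2.

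**Figure D3:**
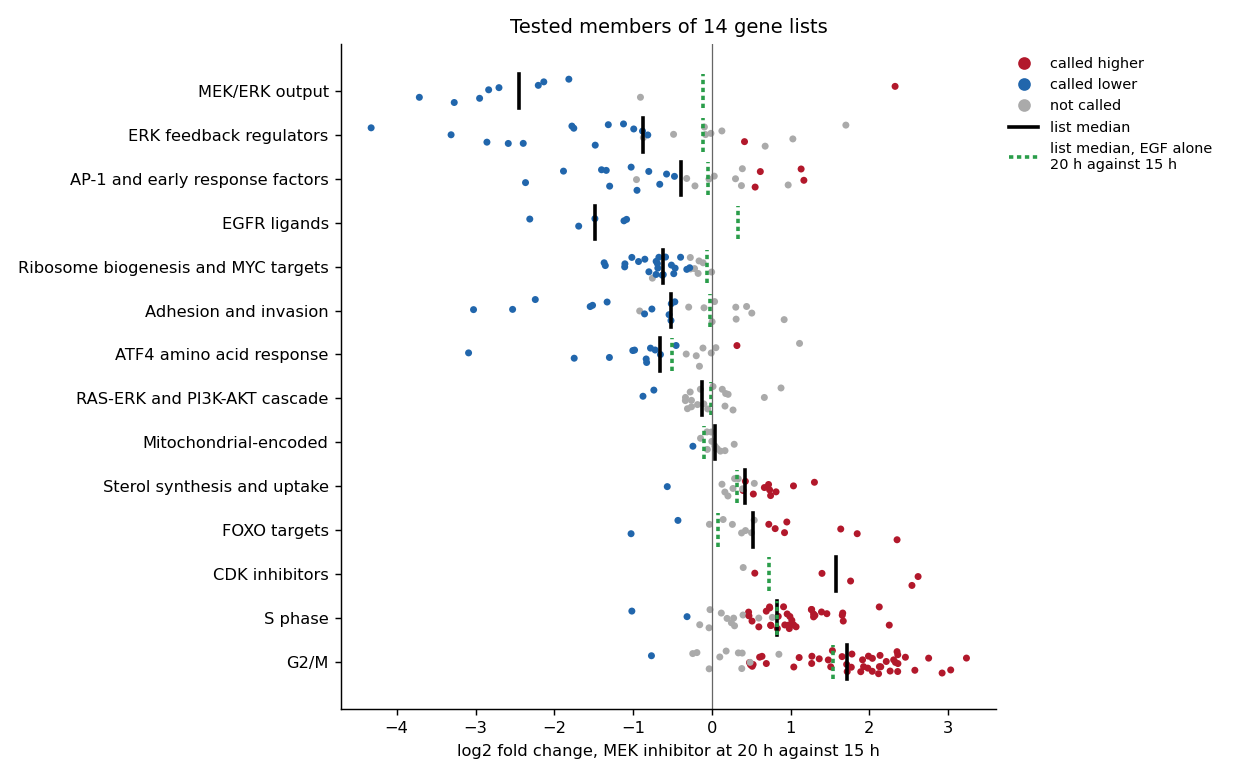
Log2 fold change of every tested member of 14 gene lists, MEK inhibitor at 20 h against 15 h (horizontal axis). Points are genes, red where called higher, blue where called lower and grey where not called, black bars are list medians and dotted green bars the medians in EGF alone. The S phase and G2/M medians (0.83 and 1.72) lie near those of EGF alone (0.83 and 1.53), and the MEK/ERK output and EGFR ligand medians (-2.45 and -1.48) do not (-0.12 and 0.33).

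Of 22 tested genes in a list of adhesion and invasion genes 12 fell and 0 rose (median -0.52), with 1 fall and 1 rise in EGF alone. ITGA2, the collagen-binding integrin subunit, went from 23.4 and 26.8 at 15 h to 4.56 and 3.93 with the inhibitor and stood at 28.8 and 27.9 in EGF alone. Its groups at 15 h and with the inhibitor did not overlap (log2 -2.53, SE 0.27, adjusted p = 3.15e-10). THBS1, the matrix protein thrombospondin 1, went from 21.6 and 36.2 to 3.04 and 7.86, against 19.6 and 21.4 in EGF alone (log2 -2.24, SE 0.32, adjusted p = 2.41e-07). LAMB3, a chain of laminin 332, fell from 176 and 299 to 68.0 and 84.5 (log2 -1.51, SE 0.13, adjusted p = 3.88e-13) and also in EGF alone, to 141 and 142 (-0.65, adjusted p = 7.71e-05). Another chain of it, LAMA3 (-0.85, adjusted p = 9.8e-06), the urokinase gene PLAU (-3.02, adjusted p = 0.000214) and its receptor PLAUR (-1.33, adjusted p = 1.14e-06) fell too. Only 5 of the falls were called without the 15 h sum of library 1, when PLAU and LAMA3 were lost, while ITGA2, THBS1, LAMB3 and PLAUR held in each alternative.

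Among the 12 largest falls at 20 CPM or more were genes of no fixed list. CITED4, a coactivator that binds CBP and p300, had the largest of them. It stood at 39.8 and 23.6 at 15 h, at 23.9 and 26.8 in EGF alone and at 1.52 and 3.27 with the inhibitor. Both inhibitor values lay below all of the others (log2 -3.93, SE 0.30, adjusted p = 6.17e-15), CITED4 fell less in EGF alone (-0.65, adjusted p = 0.00899), and its 0 h values of 6.98 and 9.38 lay above those with the inhibitor. HMGA2, a chromatin architectural protein of proliferating cells, went from 30.6 and 39.4 to 4.94 and 5.57, against 28.3 and 29.4 in EGF alone (log2 -2.54, SE 0.27, adjusted p = 1.51e-10). ANGPTL4, a secreted inhibitor of lipoprotein lipase, fell from 38 and 40.9 to 3.42 and 12.8 with the inhibitor (log2 -2.49, SE 0.24, adjusted p = 1.45e-11) but rose to 58.8 and 71.4 in EGF alone (0.50, adjusted p = 0.0444). The directions were opposite, and the direct test gave -2.99 (adjusted p = 1.23e-15). MDFI (-2.51, adjusted p = 8.96e-12) and the stress-regulated kinase gene PLK3 (-2.68, adjusted p = 1.37e-08) were also among the 12, as were DUSP4, EPHA2, PHLDA1, ITGA2, TRIB3 and SPRR2D. SPRR2D, a cornified envelope protein of a family of near-identical copies whose reads may be split, fell by 2.61 (adjusted p = 5.43e-15) and in EGF alone by 1.81 (adjusted p = 1.15e-11). None of these 12 calls was lost under any alternative run.

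**Figure D4:**
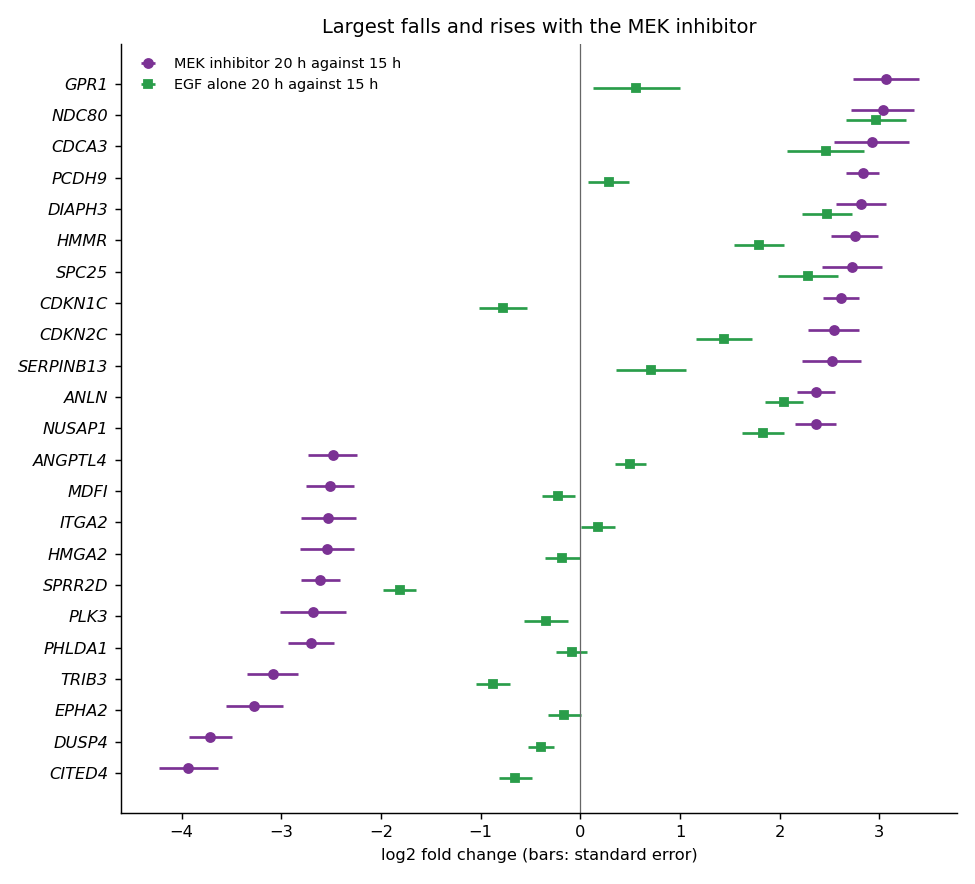
Log2 fold change against 15 h of 11 of the 12 largest falls and the 12 largest rises with the MEK inhibitor (purple circles) and the same genes in EGF alone (green squares), with bars for the standard error. The rises of NDC80, CDCA3, DIAPH3, SPC25 and ANLN stand close to their values in EGF alone, and those of PCDH9, GPR1 and CDKN1C do not. Both series share the same 15 h sums, and the genes were chosen for their purple values.

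Among the 12 largest rises PCDH9 and GPR1 stood with the inhibitor above their unstimulated levels in both libraries. So did NDC80, DIAPH3, HMMR, SPC25, ANLN, NUSAP1 and CDKN2C, all of which also rose in EGF alone. PCDH9, a protocadherin, stood at 69.8 and 79.7 at 0 h, at 14.1 and 11 at 15 h, at 17.3 and 16.3 in EGF alone and at 97.3 and 89.7 with the inhibitor. Both inhibitor values lay above every other, and PCDH9 rose by 2.83 (SE 0.17, adjusted p = 1.25e-18), with 0.29 in EGF alone (adjusted p = 0.554). GPR1, a receptor for chemerin, was at 14.7 and 9.38 at 0 h, at 2.29 and 3.15 at 15 h, at 2.59 and 7.25 in EGF alone and at 20.1 and 28.2 with the inhibitor (log2 3.07, SE 0.33, adjusted p = 3e-10). SERPINB13, a serpin of stratified epithelium, went from 4.25 and 9.44 at 15 h to 21.7 and 49.1 (log2 2.52, SE 0.29, adjusted p = 2.15e-09), against 41.9 and 46.9 at 0 h and 5.66 and 17.4 in EGF alone. DIAPH3 (2.81, adjusted p = 1.11e-12), a formin of the contractile ring, SPC25 (2.73, adjusted p = 6.31e-10), ANLN (2.36, adjusted p = 6.7e-14) and CDCA3 (2.92, adjusted p = 3.5e-08) rose in EGF alone too and make up the rest with HMMR, NDC80, NUSAP1, CDKN1C and CDKN2C. CDCA3 was not called without the 15 h sum of library 1, and the other 11 calls were lost under no alternative run.

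The amino acid response driven by ATF4 fell in both 20 h groups. ASNS, asparagine synthetase, stood at 127 and 179 at 15 h, at 52.1 and 71.4 with the inhibitor and at 62.1 and 65.6 in EGF alone. The inhibitor and EGF values overlapped (log2 against 15 h -1.30, SE 0.13, adjusted p = 2e-11, and -1.25, SE 0.12, adjusted p = 3.44e-11). TRIB3, a pseudokinase that ATF4 induces, went from 35.7 and 63.0 to 4.94 and 5.57 with the inhibitor, lower than the 24.9 and 22.1 in EGF alone (log2 -3.09, SE 0.26, adjusted p = 1.35e-13, against -0.88, SE 0.17, adjusted p = 0.000316), and the direct test gave -2.21 (adjusted p = 1.07e-08). Of 19 tested members 11 fell and 1 rose (median -0.65), and in EGF alone 11 fell and 0 rose (median -0.50). The riser was DDIT4 (0.32, adjusted p = 0.0435), an inhibitor of mTORC1 signalling, whose call was lost without any 1 of the 4 sums. Without the 15 h sum of library 1 the test called 7 of the falls, and ASNS and TRIB3 held in each alternative.

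Sterol synthesis genes rose modestly, 10 of 19 tested with 1 fall (median 0.43), against 3 rises in EGF alone (median 0.33). Between both 20 h groups the direct test called only 1 of the 19 higher and 1 lower with the inhibitor (median 0.12). IDI1, an isomerase of the mevalonate pathway, went from 48.6 and 75.5 to 87.0 and 129, with 75.2 and 121 in EGF alone (log2 0.82, SE 0.13, adjusted p = 1.78e-06, and 0.61, SE 0.12, adjusted p = 0.000484). IDI1 was not called by the direct test between both 20 h groups (0.21, adjusted p = 0.226). The fall against 15 h in the sterol list was lost without either 15 h sum, without the inhibitor sum of library 1, without the library term and at equal depth. FOXO target genes had 7 rises and 2 falls among 16 tested (median 0.52), with 0 calls in EGF alone. SESN1, a stress-induced inhibitor of mTORC1, rose from 4.09 and 6.30 to 10.3 and 18.7 (log2 1.64, SE 0.31, adjusted p = 7.37e-05) against 6.30 and 7.98 in EGF alone. Of the sterol rises 2 were called without the 15 h sum of library 1, 4 without the inhibitor sum of library 1, 6 without that of library 2 and 4 without the library term, and IDI1 held in each alternative. Of the FOXO rises 1 was called without the 15 h sum of library 1, where SESN1 was lost, and 3 without the inhibitor sum of library 2. At equal depth the counts were 3 and 0.

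The share of cells with a detected UMI was read from cells thinned to 6000 UMIs each. Thinning left out 18 and 17 shallower cells at 15 h, 18 and 18 with the inhibitor and 16 and 32 in EGF alone. For transcripts with few UMIs per cell this share also changes with the amount per cell. It therefore cannot tell fewer cells with a transcript from less of it in each cell. The genes shown were chosen after their values were seen. DUSP4 had a UMI in 30.2% and 25.5% of cells at 15 h and in 3.54% and 2.66% with the inhibitor, against 21.8% and 27.9% in EGF alone. CCND1 had a UMI in 60.0% and 83.0% of cells at 15 h and in 24.7% and 26.1% with the inhibitor, and AREG in 74.0% and 91.5% against 38.4% and 54.9%. All 3 were thus detected in fewer cells with the inhibitor in both libraries, and AREG still in many. CDKN1C was detected in 7.66% and 6.38% of cells at 15 h and in 36.9% and 31.4% with the inhibitor, and PCDH9 in 8.30% and 2.13% against 46.0% and 42.9%. RRM2 was detected in 9.79% and 23.4% at 15 h, in 26.3% and 46.0% with the inhibitor and in 32.9% and 44.8% in EGF alone. Without thinning the shares with the inhibitor were 5.56% and 6.15% for DUSP4, 35.2% and 47.5% for CCND1, 56.0% and 74.6% for AREG, 48.6% and 44.7% for CDKN1C, 59.3% and 57.8% for PCDH9 and 35.6% and 57.4% for RRM2. At 15 h the unthinned shares were 47.3% and 40.6% for DUSP4, 78.1% and 81.25% for CCND1 and 84.6% and 92.2% for AREG. For CDKN1C they were 13.3% and 12.5%, for PCDH9 13.9% and 10.9% and for RRM2 13.3% and 26.6%. All pooled cells are of 1 line, so the share that free RNA gives for these genes was not measured, and a low share such as that of DUSP4 with the inhibitor cannot be told apart from it.

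**Figure D5:**
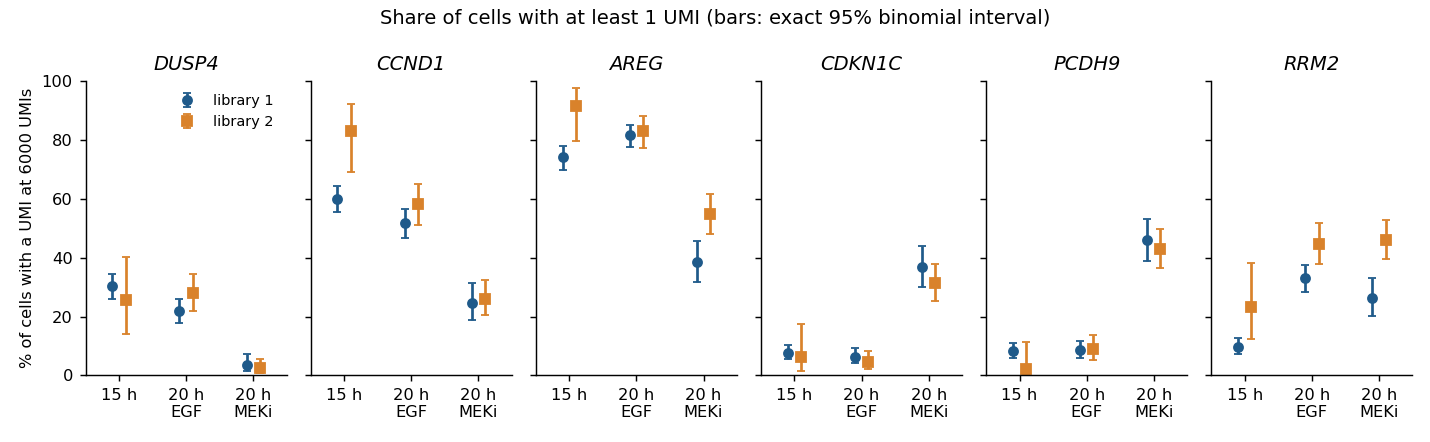
Share of cells with at least 1 UMI of 6 genes (vertical axis, percent) after each cell was thinned to 6000 UMIs, at 15 h and at 20 h in EGF alone or with the MEK inhibitor. Points are libraries and bars exact (Clopper-Pearson) 95% binomial intervals, which cover counting error within a library only. The 47 deep cells at 15 h in library 2 give the widest intervals, 13.9% to 40.4% for DUSP4, and its shares with the inhibitor, 3.54% and 2.66%, lie below both 15 h intervals.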

How the data were processed

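Transcripts of single cells were counted in 2 pooled libraries, 1 per biological replicate. What the authors deposited are UMI counts for every gene in each cell, as whole numbers. Per the submitters' processing notes, Cell Ranger 3.0.2, Seurat and genome build GRCh38 were used, while the annotation release, strand setting, cell filter and inhibitor were not given in the sources used here. Per the labels, cells of each condition carried their own sample tag, and the authors' tag calls and annotation gave the conditions. Genes in both tables (16387) were used. Counts were summed over the cells of each condition and library, and edgeR 4.0.16 (R 4.3.3, limma 3.58.1) tested all 16 sums together by quasi-likelihood with TMM scaling, filterByExpr and a library term. Adjusted p is Benjamini-Hochberg over 11147 genes, with a threshold of 0.05. Residual degrees of freedom were 7 (prior 43.3), and the common biological coefficient of variation was 0.0604. Levels are counts relative to each sum's total (CPM), without TMM scaling.

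The library term rests on the labels, which say that all conditions of a replicate were pooled in 1 library. Over 4727 genes the deviations of the conditions of a library from the condition means correlated in every 1 of 28 condition pairs, with r from 0.285 to 0.675 and a median of 0.589 (0.507 for 15 h with the inhibitor), as a description across genes. With 2 sums against 2 an exact two-sided permutation test cannot give a p below 0.333.

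The 28 gene lists (555 genes, 531 in both tables and 493 tested), the members and the tests were chosen with earlier results of these data known. Genes were named by a rule: the 12 largest falls and 12 largest rises that were called, agreed in sign between libraries and averaged 20 CPM or more at 15 h or with the inhibitor, up to 4 called genes per list with the largest change, and every tested member of the MEK/ERK output, EGFR ligand and CDK inhibitor lists. Some genes that the rule names are not reported here. Other members are named as examples of their list and were chosen after their values were seen. Positions come from GENCODE v29 on GRCh38 and promoter sequences from RefSeq (GRCh38.p14), which matched 8727 of the tested genes by symbol. On simulated counts with 200 changed genes the test recovered 28.4%, 82.1% and 98.5% of those changed by 0.5, 1 and 2 on the log2 scale and called 10 of 10534 unchanged genes. The simulation gave every gene the same biological variation and no library difference, and drew changed genes only from those above a CPM minimum. Its shares describe that simpler setting and are not error rates of the real comparison.

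Alternatives were other scaling (DESeq2 size factors, library totals), no filter, no library term, only the 4 sums compared, sums thinned to 635354 UMIs each, DESeq2 1.42.0 (Wald test) and each sum left out in turn.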

Additional observations from a re-analysis of the deposited data

How the results depend on the processing

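Counts of changed, higher and lower genes were 2330, 1166 and 1164. They were 1009, 496 and 513 with no replicate block (the library term), 615, 291 and 324 with the 4 sums thinned to equal depth, 1591, 801 and 790 with DESeq2, and 521 to 2078, 230 to 998 and 291 to 1080 with 1 sum left out. The lowest counts came without the 15 h sum of library 1, which leaves 64 cells at 15 h. A lone sum is assumed there to vary like the other conditions. The other scalings, no filter and the 4 sums alone gave between 2087 and 2338 changed genes. List medians ranged, with 1 sum left out, from -2.50 to -2.23 for MEK/ERK output, from -1.21 to -0.80 for ERK feedback regulators, from -1.93 to -1.12 for EGFR ligands, from 1.2 to 1.66 for CDK inhibitors, from 0.69 to 0.89 for S phase, from 1.17 to 1.89 for G2/M and from -0.62 to -0.49 for ribosome biogenesis. At equal depth the MEK/ERK output median was -2.67, the G2/M median 1.18 and the ribosome biogenesis median -0.56, and the last was -0.57 with no replicate block and -0.58 with the 4 sums alone.

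Over the genes named by the rule 1094 results kept direction and call, 212 lost the call and 3 turned direction. The squamous genes SPRR3 and S100A7, with 0 UMIs in both 15 h sums and with 0 and 2, were at -0.10 and -1.04 without the inhibitor sum of library 1, and WWC1 was at 0.28 without the 15 h sum of library 1. Their highest values, or lowest for WWC1, with another sum left out were 6.61, 8.52 and -1.22. Calls were lost for 34 genes with no replicate block, 55 at equal depth, 61 without the 15 h sum of library 1, 4 without that of library 2, 20 and 19 without the inhibitor sums of libraries 1 and 2, and 16 with DESeq2. The cause of these changes was not tested, apart from fewer sums and UMIs by construction. Depth limits genes with few UMIs in the 64 cells at 15 h of library 2.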

Other observations

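Heat shock genes moved in both directions with the inhibitor. HSPB1, the gene of HSP27, stood at 171 and 342 CPM at 15 h, at 171 and 247 in EGF alone and at 437 and 580 with the inhibitor (log2 against 15 h 1.12, SE 0.15, adjusted p = 1.27e-07), against 1342 and 1004 at 0 h. HSPA8, the constitutive HSC70 gene, went from 1609 and 1813 to 829.8 and 1111 (log2 -0.84, SE 0.10, adjusted p = 2.31e-09) and also fell in EGF alone (-0.38, adjusted p = 0.00694). In the heat shock list 3 of 13 rose and 5 fell, and 1 fall was called without the 15 h sum of library 1. F3, the gene of tissue factor, fell from 113 and 305 to 35.7 and 58.3 (log2 -1.97, SE 0.14, adjusted p = 1.11e-15), with 106 and 175 in EGF alone. FDXR, a p53 target of mitochondrial electron transfer, rose from 12.3 and 12.6 to 39.1 and 31.1 (log2 1.51, SE 0.21, adjusted p = 1.14e-07) and to 21.7 and 20.7 in EGF alone, while the p53 list had 6 rises and 4 falls among 20. These 4 single-gene calls held under every alternative run.

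Keratins differed among themselves. The basal keratin KRT14 rose by 0.66 with the inhibitor (adjusted p = 2.2e-07) and by 0.29 in EGF alone (adjusted p = 0.0497), and the direct test gave 0.37 (adjusted p = 0.00431). KRT18, a keratin of simple epithelium, fell by 0.69 on the log2 scale (adjusted p = 3.8e-06) and was not called in EGF alone (adjusted p = 0.995). Other keratins of the basal epithelium list changed more and in opposite directions, KRT15 rising by 1.85 and KRT6B falling by 1.61. In EGF alone 3 genes of that list rose and 3 fell, and the direct test called 2 higher and 0 lower. KRT14 and KRT6B were lost without the library term, and KRT18 and KRT15 without the 15 h sum of library 1. At equal depth KRT15 was lost too. DST, which encodes a hemidesmosomal linker, rose from 175 and 266 to 305 and 396 (log2 0.74, SE 0.11, adjusted p = 4.6e-07), with 602 and 736 at 0 h, also rose in EGF alone (0.38, adjusted p = 0.0203), and held under every alternative run. Of the other lists, basal epithelium had 5 rises and 4 falls among 13 tested, luminal epithelium 1 and 2 among 8, squamous differentiation 4 and 5 among 21, YAP/TEAD targets 3 and 2 among 15, interferon response 2 and 1 among 14, lysosome and autophagy 7 and 1 among 22, glycolysis 5 and 3 among 19 and mitochondrial-encoded transcripts 0 and 1 among 13. Of 3 tested markers of other cell types DCN rose (0.79, adjusted p = 0.00806), from 17.2 and 6.30 to 27.4 and 17.7. It lost its call without the 15 h sum of library 1 and without the inhibitor sum of library 2. The call was also lost without the library term, at equal depth and with DESeq2.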
